A study of Homo sapiens with 8 samples.

Results

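Glycosaminoglycan synthesis genes were described in cells labelled HepG2, a line derived from a human liver carcinoma, after exposure to sodium benzoate (SB). The list of 45 genes covers the hyaluronan synthases, the enzymes that make and sulfate chondroitin, dermatan and heparan sulfate chains, and the enzymes that supply their building blocks. Of these, 44 had a row among the 14526 genes of the deposited table, and HS3ST1, a heparan sulfate 3-O-sulfotransferase, had no row. The list was assembled with the SB-against-control results of these libraries known, and HAS2 and CHPF2 were among the largest differences. HAS2 had the 3rd largest fall of all genes and CHPF2 the 6th largest rise. The differences between the groups are therefore given as a description, without p-values for these 44 genes.

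Glycosaminoglycans are long, unbranched sugar chains outside the cell and on its surface. Hyaluronan is spun directly through the plasma membrane by a hyaluronan synthase and carries neither sulfate nor a protein core, whereas chondroitin and heparan sulfate chains are built in the Golgi on core proteins. A short linker that starts with xylose joins these chains to the protein, and the first sugar added after the linker decides between chondroitin and heparan sulfate. Sulfotransferases and epimerases then pattern the chains, which bind growth factors, lipoproteins and proteases. Heparan sulfate chains on hepatocytes take part in the clearance of lipoproteins from blood.

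Total RNA was sequenced from 4 control replicates and from 4 replicates kept with 10 mM SB for 24 h. All 8 were grown in DMEM with 10% FBS, and the labels name no vehicle for the control. SB is a food preservative, and the study asked how it acts on histone marks and on gene expression. The labels number the replicates and do not say how the cultures were set up. The study's methods call them biological replicates, and p-values measure the spread between these samples.

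Levels are given in RPKM, reads scaled to gene length and to library size, which allows levels of different genes to be compared. Whole reads recovered from these values came to between 37010896 and 44903216 per library, and the 44 genes had between 19 and 6961 reads in a library. A gene was called higher or lower where limma on log2(RPKM + 1) gave an adjusted p under 0.05 over all genes of the table, and the words rose and fell are kept for called genes. Of 20 hepatocyte markers, 17 had no row, among them ALB, APOA1, TTR and AFP, and TF, the transferrin gene that hepatocytes express strongly, stood at 0.192 RPKM in control, so these data go against the labelled cell type. TF rose to 0.379 RPKM with SB, and CPS1, a urea cycle enzyme, rose from 6.57 RPKM in control to 11.02 RPKM. Among markers of other cells, 4 of 8 for fibroblasts summed to 6.63 to 8.97 RPKM in control and 6.62 to 6.98 RPKM in SB-treated libraries. A row was also present for 2 of 6 leukocyte markers, with sums of 2.09 to 2.34 and 2.18 to 3.14 RPKM, and for 1 of 5 endothelial markers, at 0.268 to 0.348 and 0.113 to 0.185 RPKM. The part of these markers in the results was not tested. In such bulk RNA, fewer cells that express a gene and less RNA of it per cell cannot be told apart.

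Control replicate 1 stood apart from the other controls. It was the library farthest from the control median in 30 of the 44 genes, and in 67.0% of all genes. Among the 44, it lay below all other controls in 19 genes, whose median transcript GC content was 56.6%, and above all of them in 18, whose median was 41.3%. Across the 44 genes, its deviation from the other controls went with GC content at a Pearson r of -0.76, and across 11572 genes with a mean of at least 1 RPKM at -0.73. Genes share a library and are not independent replicates, so these values are descriptions. The median coefficient of variation of the 44 genes was 8.18% in control, 3.95% without control replicate 1, and 2.80% in SB-treated libraries.

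**Figure D1:**
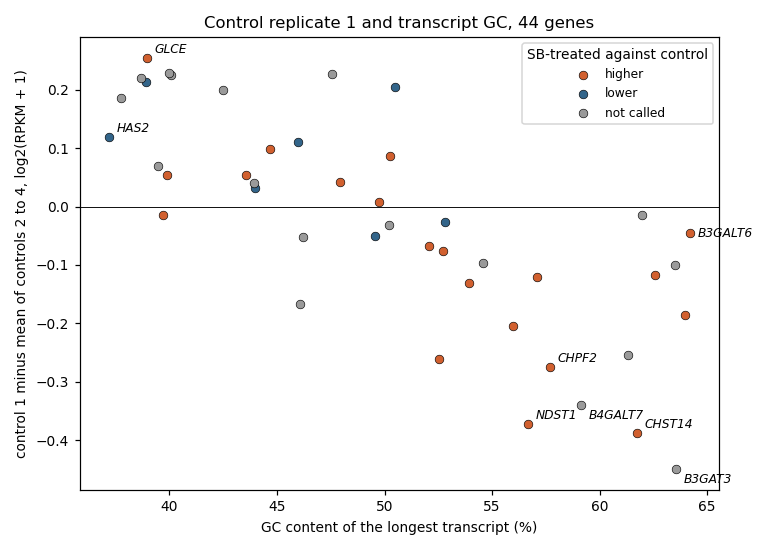
Deviation of control replicate 1 from the mean of control replicates 2 to 4, in log2(RPKM + 1), against the GC content of the longest transcript in percent, 1 point per gene for 44 genes, coloured by the call between SB-treated and control libraries. Most genes with AT-rich transcripts lie above 0 and most with GC-rich transcripts below it, among the latter B3GAT3, NDST1 and CHST14 (r = -0.76).

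With control replicate 1 included, 27 of the 44 genes (61.4%) were called, beside 65.6% of all genes. Of these, 20 (45.5%) rose and 7 (15.9%) fell, while 33.0% of all genes rose and 32.6% fell. Without control replicate 1, 23 rose and 8 fell (5459 and 5511 of all 14526 genes), and 40 of the 44 kept their call. With a correction for transcript GC content and length, chosen after the data were seen, 23 rose and 9 fell. Among the 13290 genes with a transcript GC value, it gave 4686 higher and 4771 lower. When each library was instead scaled to a fixed sum of RPKM (TPM), the median log2 ratio of all genes moved from 0.00393 to 0.19. Of all genes 7464 then rose and 2394 fell, and of the 44 genes 33 rose and 4 fell. Those 4 were HAS2, HS3ST3A1, HS3ST3B1 and SULF2, which fell under both scalings. The groups did not overlap in 29 of the 44 genes (65.9%, against 61.5% of all genes), in 22 genes that were higher with SB (50%, against 31.0%) and in 7 that were lower (15.9%, against 30.5%). The median log2 fold change was 0.09 for the 44 genes and 0.00451 for all genes, and the median size of the change was 0.21 and 0.20. Only HAS2 fell by at least 0.5 on the log2 scale (2.27%, against 5.45% of all genes). The genes that rose by that much were CHPF2, CHPF, CHST3, B3GALT6, NDST1 and EXTL3 (13.6%, against 5.12% of all genes), with EXTL3 just inside at 0.50 and CHST14 just outside at 0.49. Because the list was made from this contrast, nothing is read from these shares. The same holds for the counts per role below, which stand beside the 33.0% and 32.6% of all genes.

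**Figure D2:**
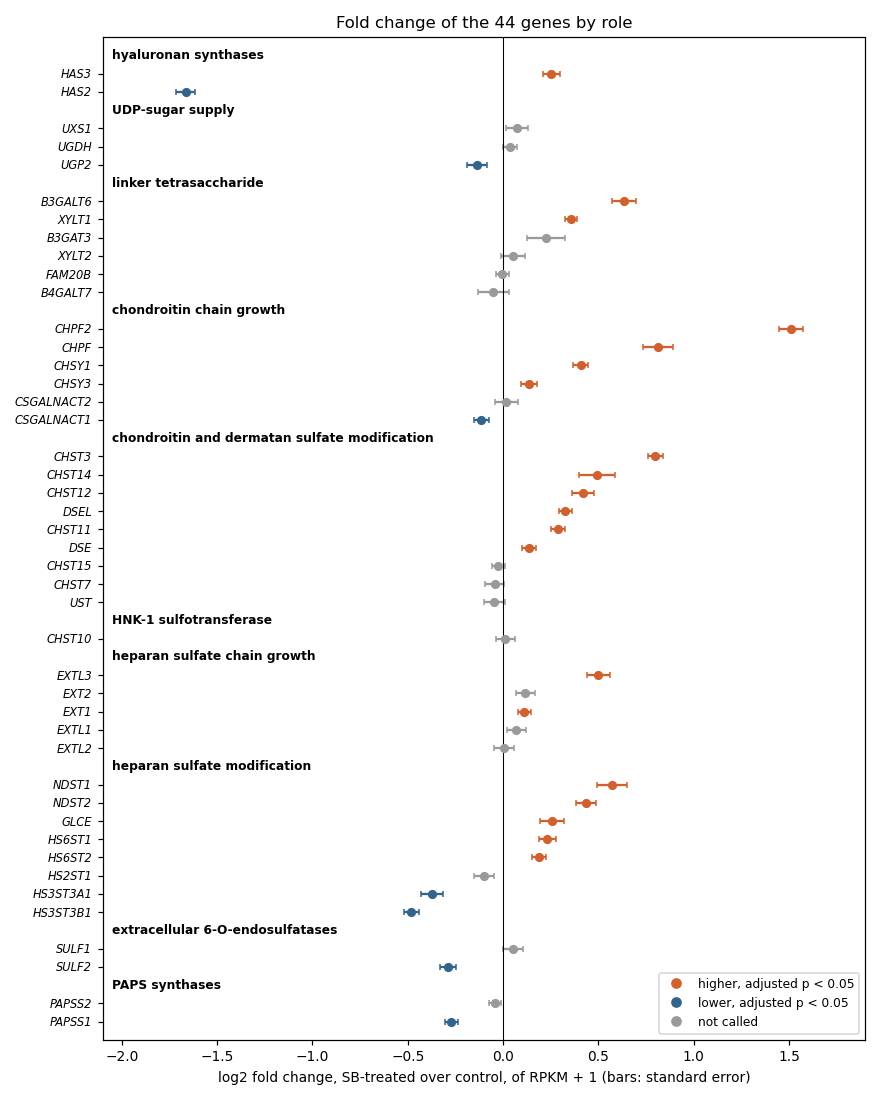
Log2 fold change of RPKM + 1, SB-treated over control, with its standard error from limma, for 44 genes grouped by role and coloured by call (adjusted p under 0.05, n = 4 per group). HAS2 lies alone at -1.67, CHPF2 reaches 1.51, and most others lie within 0.5 of 0.

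In control libraries the 44 genes ran from 0.0850 RPKM (XYLT1) to 28.4 RPKM (PAPSS1), with a median of 9.33 RPKM beside 8.30 RPKM for all genes. There were 20 genes above 10 RPKM, 18 between 1 and 10, and 6 under 1. The most abundant were both PAPS synthases, the heparan sulfate polymerase subunit EXT2 at 23.5 RPKM and the 2-O-sulfotransferase HS2ST1 at 20.4 RPKM. HAS2 was the 10th in this order at 16.6 RPKM, and CHPF2 lay well below the median at 4.02 RPKM.

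**Figure D3:**
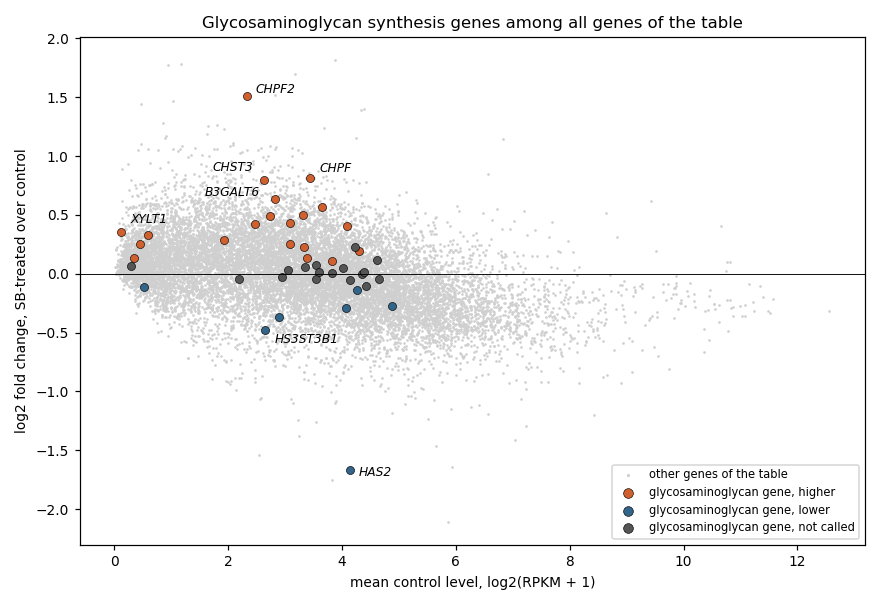
Log2 fold change (SB-treated over control, of RPKM + 1) against the mean control level in log2(RPKM + 1), with 14526 genes of the table in grey and the 44 glycosaminoglycan genes coloured by call. HAS2 at -1.67 and CHPF2 at 1.51 lie at the lower and upper edge of the cloud at their level, and the others lie inside it.

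CHPF2 and CHPF encode related chondroitin polymerising factors and both rose, so their promoter windows are shown, from 250 bases before to 50 bases after the gene start (RefSeq, GRCh38.p14). The CHPF2 window is chr7:151232233-151232532 on the plus strand, and the CHPF window is chr2:219543760-219544059 on the minus strand. Capitals mark GGGCGG on either strand (a GC box) and TGACGTCA, a palindrome known as the cAMP response element, whose search was added after the CHPF sequence had been read.
CHPF2: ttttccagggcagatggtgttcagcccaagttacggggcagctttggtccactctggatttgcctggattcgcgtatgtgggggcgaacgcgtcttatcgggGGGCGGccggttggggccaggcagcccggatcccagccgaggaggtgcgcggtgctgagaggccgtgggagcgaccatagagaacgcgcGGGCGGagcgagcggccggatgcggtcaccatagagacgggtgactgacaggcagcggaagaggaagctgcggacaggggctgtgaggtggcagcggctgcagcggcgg
CHPF: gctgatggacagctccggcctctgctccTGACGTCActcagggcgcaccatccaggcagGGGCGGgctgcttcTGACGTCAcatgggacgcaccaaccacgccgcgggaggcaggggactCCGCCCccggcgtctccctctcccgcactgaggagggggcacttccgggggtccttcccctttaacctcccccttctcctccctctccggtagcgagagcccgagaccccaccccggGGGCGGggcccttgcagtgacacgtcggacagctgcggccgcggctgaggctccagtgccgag
The CHPF2 window holds 2 GC boxes and no TGACGTCA, with 29 CpG and 67.0% GC. The CHPF window holds 3 GC boxes and 2 TGACGTCA, with 25 CpG and 71.0% GC. Of the 44 genes, 38 had a promoter in the RefSeq table; HAS2, EXT1, EXTL3, SULF1, CSGALNACT1 and PAPSS2 were not among them. GGGCGG was in 33 of the 38 windows (86.8%), in 69.8% of the windows of 10651 genes of the expression table and in 44.6% of all 27305 windows. TGACGTCA was in 3 of the 38 (7.89%), 3.24% and 1.98%. TATAAA was in 1 of the 38 (2.63%), 5.44% and 11.95%, and CCAAT in 11 of the 38 (28.9%), 36.4% and 35.7%. CACGTG was in 5 (13.2%), 10.0% and 7.43%, and TGANTCA in 2 (5.26%), 4.49% and 7.76%. TGACG, which is part of TGACGTCA, was in 11 (28.9%), 33.9% and 25.0%. All were searched on both strands, and a match describes the letters in the window only.

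Among the hyaluronan synthases, HAS2 fell and HAS3 rose. HAS2 (chromosome 8, 121612116 to 121641440, minus strand, hg38), the synthase of very long hyaluronan chains, stood at 17.7, 16.5, 15.9 and 16.4 RPKM in control replicates 1 to 4. In SB-treated replicates 1 to 4 it stood at 4.77, 4.14, 4.83 and 4.51 RPKM. The groups are far apart, and the lowest control was above 3 times the highest SB-treated value. The mean was 16.6 ± 0.786 RPKM (SD, n = 4) in control and 4.56 ± 0.316 RPKM with SB, a ratio of 0.274 and a log2 fold change of -1.67 (SE 0.050), or -1.64 without control replicate 1. It rests on a mean of 2164 reads in control and 624 with SB. HAS3 (chromosome 16, 69105653 to 69118719, plus strand), a related synthase, was scarce at 0.307, 0.342, 0.332 and 0.465 RPKM in control and 0.606, 0.627, 0.676 and 0.580 RPKM with SB. Every SB-treated value exceeded every control value. Its mean went from 0.361 ± 0.0704 to 0.622 ± 0.0407 RPKM (n = 4 each), a ratio of 1.72 from about 70.2 and 127 reads. HAS2 made up 97.9% ± 0.444 of the summed RPKM of both synthases in control and 88.0% ± 0.873 with SB. HAS1 had no row.

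The exons of HAS2 share 251 of 4240 bases (5.92%) with the antisense RNA HAS2-AS1, and whether the counting used strand is not given in the sources used here. HAS2-AS1 stood at 0.562 ± 0.0653 RPKM in control and 0.510 ± 0.0574 RPKM with SB, and was not called. HAS3 shares 365 of 5200 bases (7.02%) with CHTF8 on the other strand. CHTF8 stood at 51.1 ± 6.13 RPKM in control and 50.8 ± 0.309 RPKM with SB, far above HAS3. It was not called either, but was called lower without control replicate 1, at -0.092. The share of HAS3 reads that could come from CHTF8 was not tested.

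**Figure D4:**
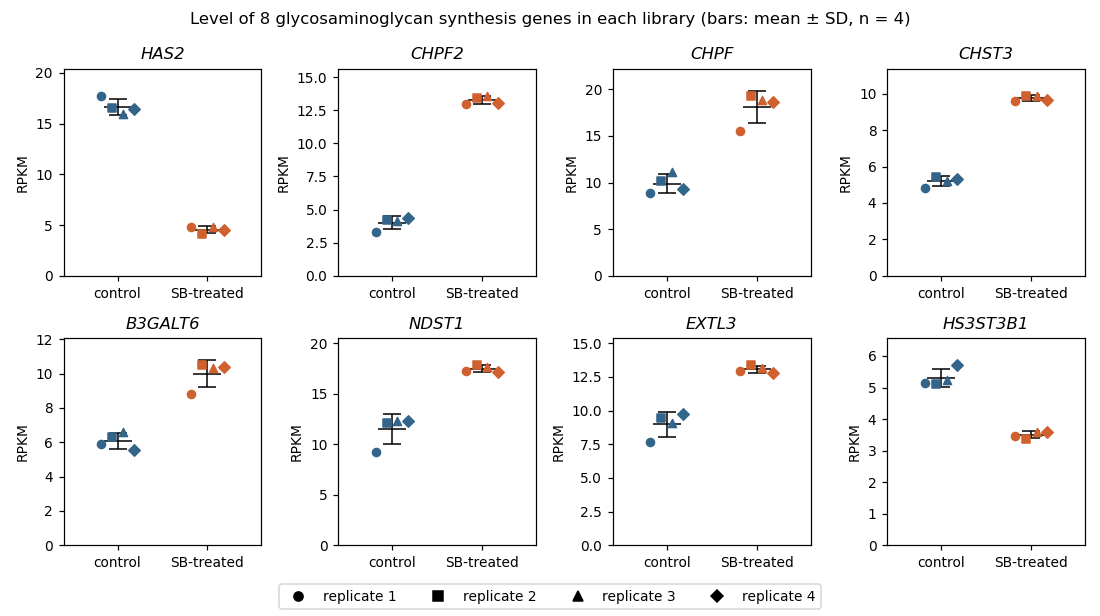
RPKM in each library for 8 of the genes, control in blue and SB-treated in orange, with marker shapes for replicates 1 to 4 and bars for the mean ± SD (n = 4). The groups are separate in all 8 panels; HAS2 lies between 15.9 and 17.7 in control and between 4.14 and 4.83 with SB, and CHPF2 between 3.34 and 4.37 and between 13.0 and 13.6.

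Nucleotide sugars are the substrates of every chain. UGP2 makes UDP-glucose, UGDH oxidises it to UDP-glucuronic acid and UXS1 turns that into UDP-xylose. UGP2, the most abundant, stood at 20.4, 17.2, 17.3 and 17.9 RPKM in control and 16.7, 16.0, 16.2 and 16.8 RPKM with SB. Control replicate 1 is the high value, and the groups do not overlap without it either. UGP2 fell by 0.14 on the log2 scale (0.08 without control replicate 1 and with the GC and length correction), but the sign turned to 0.042 under TPM scaling, and the call was lost without control replicate 4 or without any of the SB-treated replicates. UGDH was 7.28 ± 0.328 RPKM in control and 7.48 ± 0.103 RPKM with SB, and UXS1 was 10.7 ± 0.993 and 11.3 ± 0.269 RPKM (n = 4 each). Neither was called. UXS1 was called higher without control replicate 1, at 0.13. Both were called higher with the GC and length correction, UGDH at 0.16 and UXS1 at 0.21. They were also called higher under TPM scaling, at 0.22 and 0.26. The exons of UGDH share 513 of 4025 bases (12.7%) with the antisense RNA UGDH-AS1. UGDH-AS1 rose from 18.1 ± 1.65 RPKM in control to 20.4 ± 0.553 RPKM with SB, with overlapping groups.

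The linker tetrasaccharide is made by XYLT1 and XYLT2, which attach xylose, by B4GALT7 and B3GALT6, which add galactose, and by B3GAT3, which adds glucuronic acid, while the kinase FAM20B phosphorylates the xylose. Of these 6 genes, B3GALT6 and XYLT1 rose and the other 4 were not called. B3GALT6 (chromosome 1, 1232237 to 1235041, plus strand) stood at 5.91, 6.30, 6.61 and 5.52 RPKM in control and at 8.81, 10.5, 10.3 and 10.4 RPKM with SB. SB-treated replicate 1 is the low one of its group and still above every control. The log2 fold change was 0.63 (SE 0.064), from 6.08 ± 0.471 to 10.0 ± 0.797 RPKM (n = 4 each).

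XYLT1 was the scarcest of the 44 genes, and its values per library are given because they were noticed after the values had been seen. It stood at 0.0478, 0.109, 0.0839 and 0.0996 RPKM in control and at 0.399, 0.382, 0.400 and 0.378 RPKM with SB. The mean ratio of 4.58 exceeded that of CHPF2, from a mean of 31.2 reads in control and 152 with SB. On the log2(RPKM + 1) scale, which understates changes of low genes, the difference was 0.36, with a pseudocount of 0.1 it was 1.42, and with the GC and length correction it was 0.19. XYLT2 was 9.18 ± 0.912 RPKM in control and 9.54 ± 0.328 RPKM with SB and was not called. XYLT1 thus made up 0.902% ± 0.213 of the RPKM of both xylosyltransferases in control and 3.93% ± 0.220 with SB.

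FAM20B, the most abundant linker gene, was nearly level in RPKM, but was called higher under TPM scaling, at 0.18. It stood at 19.95, 19.1, 19.6 and 19.4 RPKM in control and 19.5, 18.9, 19.7 and 19.9 RPKM with SB, and the groups overlap throughout. B4GALT7 was 16.6 ± 2.18 and 15.9 ± 0.50 RPKM, with a log2 fold change of -0.05 that became -0.14 and was called lower without control replicate 1. B3GAT3 was 17.7 ± 2.71 and 20.7 ± 1.36 RPKM (n = 4 each). Its groups did not overlap, but control replicate 1 lay far below the other controls, and the log2 fold change went from 0.23 to 0.11 without it. B3GAT3 was called higher with the GC and length correction, under TPM scaling and when replicate numbers were blocked.

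Chondroitin chain growth held the largest rises on the log2(RPKM + 1) scale, CHPF2 and CHPF. CSGALNACT1 and CSGALNACT2 add the first N-acetylgalactosamine after the linker, CHSY1 and CHSY3 are chondroitin synthases, and CHPF and CHPF2 work with them in polymerisation. Of the 6 genes, 4 rose, CSGALNACT1 fell and CSGALNACT2 was not called. The summed level of the 6 was 48.6 to 52.0 RPKM in control and 72.8 to 74.1 RPKM with SB.

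CHPF2 (chromosome 7, 151232483 to 151240979, plus strand) stood at 3.34, 4.24, 4.14 and 4.37 RPKM in control and at 13.0, 13.4, 13.6 and 13.0 RPKM with SB. Control replicate 1 is the lowest value, and the groups lie far apart. The mean went from 4.02 ± 0.465 to 13.3 ± 0.301 RPKM (n = 4 each), a ratio of 3.30 and a log2 fold change of 1.51 (SE 0.063), or 1.44 without control replicate 1. It rests on 634 reads in control and 2208 with SB. The exons of CHPF2 share 1321 of 6498 bases (20.3%) with SMARCD3 on the other strand and hold the microRNA gene MIR671. They share 574 bases (8.83%) with a long non-coding RNA on the same strand, which had no row. SMARCD3, a chromatin remodelling subunit, stood at 12.3 ± 0.562 RPKM in control and 13.0 ± 0.427 RPKM with SB and was not called.

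CHPF (chromosome 2, 219538954 to 219543809, minus strand) stood at 8.83, 10.2, 11.1 and 9.30 RPKM in control and at 15.5, 19.3, 18.8 and 18.7 RPKM with SB. SB-treated replicate 1 is the low one of its group, as for B3GALT6, and the groups do not overlap. The log2 fold change was 0.81 (SE 0.081), from 9.86 ± 1.0 to 18.1 ± 1.72 RPKM. The rise of CHPF2 was the larger of these related genes, so that CHPF2 RPKM per CHPF RPKM went from 0.373 to 0.470 in control to 0.695 to 0.837 with SB. Together, CHPF and CHPF2 went from 13.9 ± 1.31 to 31.3 ± 1.92 RPKM (n = 4 each).

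CHSY1, a chondroitin synthase, rose from 15.9 ± 0.586 to 21.4 ± 0.551 RPKM, a log2 fold change of 0.41 and less than CHPF or CHPF2. The RPKM of CHPF and CHPF2 per RPKM of CHSY1 was 0.874 ± 0.111 in control and 1.46 ± 0.121 with SB (n = 4 each). CHSY3 was scarce, at 0.278 ± 0.0573 and 0.404 ± 0.0483 RPKM, from 38.5 and 59.2 reads, and its call was lost without control replicate 2 or SB-treated replicate 3 or 4. CSGALNACT2, the most abundant gene of the group, stood at 22.3, 19.4, 19.3 and 18.4 RPKM in control and 21.4, 19.1, 19.8 and 19.98 RPKM with SB. Its groups overlap. CSGALNACT1 was at 0.431 ± 0.0592 RPKM in control and 0.322 ± 0.0367 RPKM with SB, and its call was lost under TPM scaling and without control replicate 4 or SB-treated replicate 1, 2 or 4.

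Of 9 genes that modify chondroitin and dermatan sulfate, 6 rose and none fell. With TPM scaling 7 rose and none fell, and with the GC and length correction 5 rose and CHST15 fell. CHST3 (chromosome 10, 71964395 to 72013558, plus strand), which sulfates N-acetylgalactosamine at the 6-O position, stood at 4.81, 5.42, 5.19 and 5.33 RPKM in control. With SB it stood at 9.61, 9.87, 9.89 and 9.65 RPKM. The values are tight in both groups, which lie well apart. The log2 fold change was 0.80 (SE 0.039), from 5.19 ± 0.269 to 9.76 ± 0.145 RPKM. CHST7, which adds sulfate at the same position, was 3.57 ± 0.293 RPKM in control and 3.43 ± 0.137 RPKM with SB and was not called.

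The 4-O-sulfotransferases of chondroitin rose less than CHST3. CHST11 rose from 2.80 ± 0.154 to 3.64 ± 0.0813 RPKM, and CHST12 rose from 4.53 ± 0.310 to 6.40 ± 0.503 RPKM. For CHST12 this was a log2 fold change of 0.42, and of 0.20 with the GC and length correction. CHST3 RPKM per RPKM of CHST11 and CHST12 was 0.707 ± 0.0234 in control and 0.973 ± 0.0326 with SB (n = 4 each). CHST14, the dermatan 4-O-sulfotransferase, rose from 5.69 ± 0.938 to 8.34 ± 0.502 RPKM, a log2 fold change of 0.49, or 0.39 without control replicate 1. Both epimerases that turn chondroitin into dermatan sulfate also rose. DSE went from 9.47 ± 0.397 to 10.5 ± 0.155 RPKM and DSEL, at a lower level, from 0.508 ± 0.0318 to 0.893 ± 0.0584 RPKM. DSE was not called with the GC and length correction, which took its log2 fold change from 0.14 to 0.060. Of the exonic bases of DSEL, 35.7% overlap a long non-coding RNA on the other strand.

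The uronyl 2-O-sulfotransferase UST, the most abundant of the 9, stood at 12.1, 10.4, 9.70 and 10.4 RPKM in control and 10.3, 10.4, 9.96 and 10.3 RPKM with SB. The groups overlap, with control replicate 1 high. CHST15, which adds a further sulfate to 4-O-sulfated units, was 6.76 ± 0.193 and 6.62 ± 0.113 RPKM and was not called. It was called lower with the GC and length correction, at -0.074, and higher under TPM scaling, at 0.15. CHST10, which sulfates the HNK-1 epitope, stood at 10.5, 11.5, 11.2 and 11.3 RPKM in control and 10.7, 10.5, 11.8 and 11.8 RPKM with SB, with overlapping groups.

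**Figure D5:**
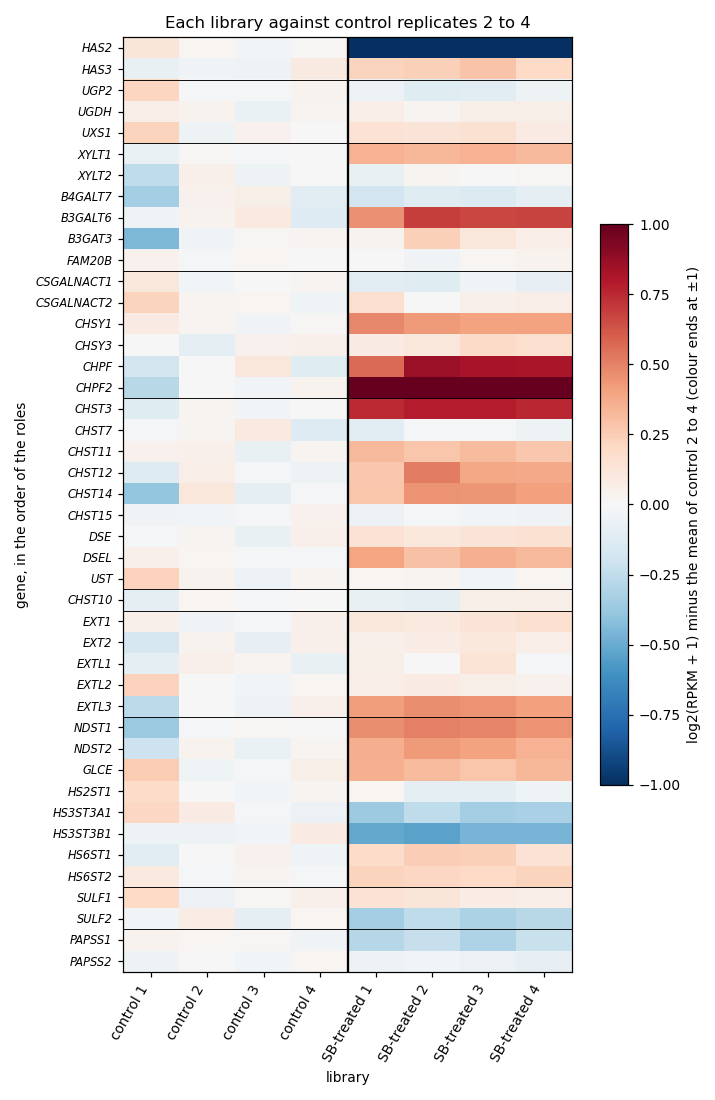
Level of 44 genes in each of the 8 libraries as log2(RPKM + 1) minus the mean of control replicates 2 to 4, with genes in rows by role, a line between roles and colours that end at ±1. The 4 SB-treated columns look alike for HAS2 (blue) and CHPF2 (red), and control replicate 1 differs from the other controls in 37 genes, in which it lies below or above them all.

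The enzymes of heparan sulfate chain growth come next. EXT1 and EXT2 together polymerise the chain, EXTL3 adds the first N-acetylglucosamine, and EXTL1 and EXTL2 are related transferases. Of the 5 genes, EXTL3 and EXT1 rose and none fell. EXTL3 (chromosome 8, 28600469 to 28756561, plus strand) stood at 7.69, 9.42, 9.05 and 9.75 RPKM in control and at 12.9, 13.4, 13.2 and 12.8 RPKM with SB. Control replicate 1 is the lowest, and the groups do not overlap. The log2 fold change was 0.50 (SE 0.062), or 0.44 without control replicate 1.

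EXT2, the most abundant of them, stood at 21.4, 24.7, 22.8 and 25.0 RPKM in control and 25.1, 25.4, 26.1 and 25.3 RPKM with SB. The groups touch without overlapping, and the gene was not called, although it was without control replicate 2, without control replicate 4 and under TPM scaling. EXT1 rose from 13.2 ± 0.454 to 14.3 ± 0.307 RPKM, a log2 fold change of 0.11, and lost its call without control replicate 2 or SB-treated replicate 3 or 4, and with the GC and length correction, at 0.033. EXTL2 was 13.1 ± 1.17 and 13.1 ± 0.170 RPKM, and EXTL1 was 0.221 ± 0.0630 and 0.281 ± 0.0622 RPKM (n = 4 each). Neither was called. EXTL2 was called higher without control replicate 1, at 0.06, with the GC and length correction, at 0.12, and under TPM scaling, at 0.19. EXTL1 was called higher under TPM scaling, at 0.21.

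Of 8 heparan sulfate modification genes with a row, 5 rose, both 3-O-sulfotransferases fell and HS2ST1 was not called. NDST1 (chromosome 5, 150485818 to 150558211, plus strand), which replaces acetyl groups with sulfate on glucosamine and opens the chain to later enzymes, stood at 9.26, 12.2, 12.4 and 12.3 RPKM in control. With SB it stood at 17.3, 17.9, 17.7 and 17.2 RPKM. Control replicate 1 lies far below the other controls, which agree closely with each other. The log2 fold change was 0.57 (SE 0.080), or 0.48 without that library. The related NDST2 rose from 7.55 ± 0.652 to 10.5 ± 0.280 RPKM, although 82.9% of its exonic bases are shared with a readthrough gene on the same strand. NDST1 RPKM per NDST2 RPKM was 1.39 to 1.66 in control and 1.65 to 1.67 with SB.

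GLCE, the epimerase that makes iduronic acid, rose from 7.55 ± 0.820 to 9.18 ± 0.240 RPKM. HS2ST1, which sulfates iduronic acid and was the most abundant of these genes, stood at 22.5, 19.6, 19.3 and 20.1 RPKM in control and 19.9, 18.3, 18.4 and 19.1 RPKM with SB. The groups overlap, and HS2ST1 was called lower with the replicate block and with the GC and length correction. The 6-O-sulfotransferases HS6ST1 and HS6ST2 rose by 0.23 and 0.19 on the log2 scale, from 9.03 ± 0.468 to 10.8 ± 0.389 RPKM and from 18.7 ± 0.723 to 21.5 ± 0.196 RPKM. For HS6ST1 it was 0.099 with the GC and length correction.

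The 3-O-sulfotransferases went the other way. HS3ST3B1 (chromosome 17, 14301081 to 14349404, plus strand) had 5.13, 5.12, 5.23 and 5.71 RPKM in control and 3.46, 3.38, 3.60 and 3.59 RPKM with SB, outside the naming rule but drawn in the plot of 8 genes. It fell by 0.48 on the log2 scale. HS3ST3A1 (chromosome 17, 13494032 to 13601929, minus strand) fell by 0.37, from 6.43 ± 0.616 to 4.74 ± 0.185 RPKM. Both are close paralogs, so reads may have been split between them, and their summed level was 11.7 ± 0.465 RPKM in control and 8.24 ± 0.154 RPKM with SB (n = 4 each).

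SULF1 and SULF2 are secreted enzymes that remove 6-O-sulfate from finished heparan sulfate. SULF2 stood at 15.6, 16.8, 14.9 and 16.1 RPKM in control and at 12.4, 13.2, 12.6 and 13.0 RPKM with SB. The groups do not overlap, and SULF2 fell by 0.29 on the log2 scale. SULF1 was 15.2 ± 1.24 RPKM in control and 15.8 ± 0.426 RPKM with SB and was not called, or called higher at 0.10 without control replicate 1. SULF1 RPKM per SULF2 RPKM was 0.836 to 1.09 in control and 1.19 to 1.31 with SB.

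PAPSS1 and PAPSS2 make PAPS, the sulfate donor of every sulfotransferase above. PAPSS1 stood at 28.9, 28.6, 28.5 and 27.5 RPKM in control and at 23.0, 23.9, 22.6 and 24.0 RPKM with SB. The groups are separate, and PAPSS1 fell by 0.27 on the log2 scale, while it was -0.14 with the GC and length correction, and under TPM scaling it was -0.093 and not called. PAPSS2 was 24.1 ± 0.561 and 23.4 ± 0.421 RPKM (n = 4 each) and was not called, but was called higher under TPM scaling, at 0.14. The ratio of PAPSS1 to PAPSS2 RPKM was 1.18 ± 0.0492 in control and 0.999 ± 0.0344 with SB.

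Other genes of the pathway were taken from 7 lists of 98 genes, of which 78 had a row. Of these, 34 rose (43.6%) and 20 fell (25.6%), beside 33.0% and 32.6% of all genes. The median log2 fold change was 0.08 beside 0.00451 for all genes. Under TPM scaling 47 rose and 11 fell, beside 7464 and 2394 of all 14526 genes. These lists were also chosen with results of these data known, so nothing is read from these shares or from the counts per list. The genes named from them, other than HMMR, were picked as the largest changes of this contrast. Their limma p-values are therefore descriptions only, and are not printed for every gene. Of 14 core proteins that carry heparan sulfate, 8 fell and 2 rose. GPC2, a glypican, fell from 2.45 ± 0.310 to 1.37 ± 0.131 RPKM (limma adjusted p = 7.91e-05), and AGRN, the basement membrane proteoglycan agrin, fell from 4.84 ± 0.604 to 3.22 ± 0.374 RPKM (limma adjusted p = 9.95e-04). SDC3, a syndecan, rose from 21.5 ± 2.09 to 25.6 ± 0.883 RPKM (limma adjusted p = 8.69e-03), a log2 fold change of 0.24 that was 0.070 with the GC and length correction, and SDC4 rose from 9.80 ± 0.755 to 11.6 ± 0.439 RPKM. Under TPM scaling 5 of the 14 rose and 4 fell, so the direction of this list depended on the scaling.

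Of 13 chondroitin and dermatan sulfate core proteins 9 had a row, and 3 rose and 3 fell. With the GC and length correction 1 rose and 5 fell, and without control replicate 1, 4 rose and 5 fell. CSPG5, also known as neuroglycan C, rose from 5.96 ± 0.263 to 12 ± 0.348 RPKM, with a log2 fold change of 0.91 (limma adjusted p = 2.27e-07). NCAN rose from 0.274 ± 0.0364 to 0.440 ± 0.0202 RPKM, but was not called with the GC and length correction, at 0.029. That correction took no account of the level of a gene, and NCAN is scarce. With voom on recovered reads NCAN was called higher, at 0.69. VCAN, the large matrix proteoglycan versican, which binds hyaluronan, fell from 11.3 ± 0.405 to 8.26 ± 0.196 RPKM (limma adjusted p = 1.08e-05). APLP2, a relative of the amyloid precursor protein, fell from 148 ± 5.82 to 115 ± 0.746 RPKM (limma adjusted p = 1.99e-05).

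Among genes that bind or break down hyaluronan, 11 of 17 had a row, and 6 rose and none fell. Under TPM scaling and without control replicate 1, 7 rose and 1 fell, and with the GC and length correction 4 rose and 3 fell. The receptor gene CD44 had no row. HYAL3, of the hyaluronidase family, rose from 1.37 ± 0.246 to 3.14 ± 0.187 RPKM (limma adjusted p = 1.06e-05), and TMEM2, a cell surface hyaluronidase also named CEMIP2, rose from 2.95 ± 0.10 to 4.52 ± 0.0623 RPKM (limma adjusted p = 2.16e-06). HMMR, the hyaluronan receptor RHAMM, was 25.2 ± 4.58 RPKM in control and 25.1 ± 0.956 RPKM with SB (limma adjusted p = 0.962). Control replicate 1 was high for HMMR at 32.1 RPKM, and without it the gene was called higher, at 0.12.

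Lysosomal enzymes that degrade the chains moved both ways, with 7 of 14 higher and 3 lower. HGSNAT, which acetylates the glucosamine of heparan sulfate before it is cut, rose from 9.47 ± 0.375 to 16.0 ± 0.0428 RPKM (limma adjusted p = 5.39e-07). ARSB, which removes 4-O-sulfate from chondroitin and dermatan sulfate, rose from 2.87 ± 0.112 to 4.64 ± 0.105 RPKM (limma adjusted p = 1.56e-06). NAGLU, the heparan sulfate glucosaminidase that acts after HGSNAT, fell from 21.6 ± 3.89 to 12.8 ± 0.325 RPKM (limma adjusted p = 4.68e-04), and HEXA fell from 43.8 ± 3.14 to 32.2 ± 0.508 RPKM. The fall of NAGLU was 0.69 on the log2 scale and 0.83 without control replicate 1.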

How the data were processed

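RNA-seq libraries of 4 control and 4 SB-treated samples were used, grouped by their labels. The authors prepared stranded total RNA libraries, sequenced single reads of 50 bases, mapped them to hg38 with TopHat2 2.1.0, counted reads per gene with featureCounts 1.5.0, dropped genes that did not exceed 1 CPM in 2 or more samples, and scaled the libraries with TMM in edgeR 3.16.5 (versions as in the submitters' processing notes). The strand setting of the counting is not given in the sources used here. The authors deposited one RPKM value per gene and library. The deposited table also holds a mean log2 CPM per gene, used here only to recover reads. The log2 fold change, p-value and FDR columns hold the authors' own comparison and were not used. No other per-sample column was left unused (0).

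Each RPKM value is a whole read number divided by gene length and library size, and whole reads came out for 100% of the genes (tolerance 0.02 reads). The SB-treated and control groups were fitted in limma (version 3.58.1, R 4.3.3) after adding 1 to each RPKM and taking log2. Adjustment of p-values was by Benjamini-Hochberg across the 14526 genes, with a threshold of 0.05 and no further filter. Fold changes on this scale understate those of low genes. Gene positions, exon overlaps and transcript GC came from GENCODE 44. Scripts ran in Python 3.11.15 and were tested on simulated data.

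The genes and lists were chosen with earlier results of these data known. Every listed gene is named. Values per library are given for HAS2, CHPF2, called genes with a log2 change of at least 0.5 and the most abundant gene of each role, and of each other list up to 2 called genes with the largest rise and 2 with the largest fall are named, with CD44 and HMMR. Alternatives were a pseudocount of 0.1, a mean of at least 1 RPKM, TPM and median-of-ratios scaling, the replicate number as a block, voom on recovered reads and leaving out each library. A correction for GC content and length was added after the data were seen. It was fitted on log2(RPKM + 1) over genes of all levels together and took no account of the level of a gene. Its values for scarce genes are therefore less certain. ChIP-seq data were not analysed here. One cell type marker is not reported here.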

Additional observations from a re-analysis of the deposited data

Results flagged for a closer look

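In 138 groups of 4 libraries, the gap between the extreme library and its nearest neighbour, as a share of the group's range, passed Dixon's critical value for 4 samples in 9. Chance gives about 1 in 20, or 6.9. In 6 of the 9 the extreme library was control replicate 1. It was the lowest control for NDST1 (0.940), B3GAT3 (0.874), NAGLU (0.889) and SDC3 (0.838), and the highest for GNPNAT1 (0.889) and HMMR (0.856). In the SB-treated group, replicate 1 was the lowest for B3GALT6 (0.909) and CHPF (0.844), both of which rose whether or not it was included. SB-treated replicate 3 was the lowest for UST (0.884), a gene whose groups overlap.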

How the results depend on the processing

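Under TPM scaling 7464 genes of the table rose and 2394 fell, among them 33 and 4 glycosaminoglycan synthesis genes, and 11 other pathway genes fell. Of the named genes, 62 moved by more than the spread between replicates under that scaling, 2 reversed and 5 moved by less. The 2, both called lower without that scaling, were UGP2 at 0.042 and B4GALT1 at 0.052. UGP2 was not called under TPM scaling. Signs of uncalled genes also turned, such as HS2ST1 from -0.10 to 0.080 and B4GALT7 from -0.05 to 0.13, both still uncalled. FAM20B went from -0.0033 to 0.18 and PAPSS2 from -0.042 to 0.14, and both were then called higher. XYLT2, CSGALNACT2, CHST10 and SULF1, uncalled before, were also called higher under TPM scaling, at 0.24, 0.20, 0.19 and 0.24. The sum of RPKM per library was 403166 to 408246 in control and 354642 to 356905 with SB. With a mean of at least 1 RPKM required, 21 other pathway genes rose and 18 fell, beside 3980 and 4476 genes of the whole table. That filter dropped the scarce genes, so fewer genes were tested. Median-of-ratios scaling left 20 higher and 7 lower among the 44 genes, as did voom on recovered reads, with the same call in all 44. Among all genes of the table, median-of-ratios scaling gave 4732 higher and 4790 lower, and voom gave 4864 and 4758. A pseudocount of 0.1 gave 20 and 6, beside 4812 and 4670 of all genes. Correction for GC content and length, chosen after seeing the data, gave 23 and 9, with the same call in 35. It moved 33 named genes by more than the spread between replicates and 34 by less, the former including CHST3 from 0.80 to 0.63, NDST1 from 0.57 to 0.39 and EXTL3 from 0.50 to 0.34, while HAS2 stood at -1.60 and CHPF2 at 1.41.

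Leaving out each library in turn gave 18 to 23 higher and 5 to 8 lower, and over all genes of the table it gave 4311 to 5459 higher and 4285 to 5511 lower, with 24 to 38 and 19 to 25 for other pathway genes. The upper ends came without control replicate 1. Where a single library other than control replicate 1 decided a call, the log2 fold change was -0.12 to -0.15 for UGP2, -0.10 to -0.12 for CSGALNACT1, 0.10 to 0.13 for CHSY3, 0.096 to 0.11 for EXT1 and 0.14 to 0.15 for EXT2. Leaving out control replicate 1 added calls for UXS1 at 0.13, B4GALT7 at -0.14, EXTL2 at 0.062 and SULF1 at 0.10. HAS2 and CHPF2 kept their calls in every alternative run.

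Same-numbered replicates deviated from their group means with correlations of 0.38, 0.327, 0.173 and -0.16, a mean of 0.18 beside -0.0541 for other pairs. Since 1 of the 4 was negative and the labels name nothing shared, the numbers were not taken to pair the samples. With the replicate number as a block, 21 of the 44 genes rose and 8 fell, B3GAT3 and HS2ST1 being added, and among all genes 4885 rose and 4894 fell. Depth limits mainly the 6 genes under 1 RPKM, where 19 reads was the lowest value.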

Other observations

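Enzymes of the same families outside the 44 genes were scarce. Of 13 such genes 6 had a row, and all 6 rose, with a summed level of 2.95 to 3.38 RPKM in control and 4.93 to 5.35 RPKM with SB. With the correction for GC content and length, 4 of the 6 rose. HS6ST3, another heparan sulfate 6-O-sulfotransferase, rose from 0.465 ± 0.0790 to 1.21 ± 0.0422 RPKM (limma adjusted p = 3.12e-06). B3GAT1, which makes the glucuronic acid part of the HNK-1 epitope, rose from 0.418 ± 0.0456 to 0.767 ± 0.0736 RPKM (limma adjusted p = 1.19e-04). Its log2 fold change was 0.32, and 0.17 with that correction.

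All 17 genes for precursor sugars, transporters and Golgi support had a row, and 8 rose and 4 fell, or 12 and 0 under TPM scaling. SLC26A2, the sulfate transporter of the plasma membrane, rose from 10.7 ± 0.116 to 14.4 ± 0.197 RPKM (limma adjusted p = 3.66e-06), and PGM3, of the UDP-N-acetylglucosamine pathway, rose from 11.4 ± 0.257 to 14.1 ± 0.0403 RPKM (limma adjusted p = 3.65e-05). GNPNAT1, of the same pathway as PGM3, fell from 38.6 ± 3.09 to 33.2 ± 0.727 RPKM, and IMPAD1, the Golgi phosphatase that clears a by-product of sulfation, fell from 24.9 ± 1.17 to 21.5 ± 0.502 RPKM. Of 9 keratan sulfate enzymes 7 had a row, with 2 higher and 2 lower, or 4 and 0 under TPM scaling. CHST2 rose from 1.59 ± 0.270 to 2.04 ± 0.182 RPKM and CHST1 from 0.357 ± 0.0984 to 0.561 ± 0.111 RPKM. The groups overlap for both, and neither was called with the GC and length correction, at 0.15 and 0.12. B4GALT4 fell from 11.4 ± 1.28 to 9.38 ± 0.205 RPKM, and B4GALT1 fell by 0.13 on the log2 scale but stood at 0.052 under TPM scaling.

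Transcript GC content and the log2 fold change without control replicate 1 had a Pearson r of 0.39 across the 44 genes and of 0.01 across 11572 genes with a mean of at least 1 RPKM, which share libraries and are not independent.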
